A study of Homo sapiens with 16 samples.

Results

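Cells make cholesterol and fatty acids from the same acetyl-CoA pool, and the enzymes of both branches were followed here in SW480 cells, an established human colorectal cancer line. The list held 30 genes: 18 of sterol synthesis, 7 of fatty acid synthesis, 4 regulators of the pathway and the sterol carrier STARD4. Each gene was represented by its brightest probe set, by the mean over all 16 arrays, among the probe sets annotated to that gene alone. By this rule 27 genes were measured, of 19775 genes on the arrays: 16 of the sterol branch, 6 of the fatty acid branch, the 4 regulators and STARD4. FDFT1 was not analysed here, and the probe sets of CYP51A1 and FADS1 were each annotated to several genes and were not used. Values are RMA log2 expression levels, so a difference of 1 is a factor of 2.

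Total RNA of 4 groups of 4 arrays, lettered A to D, was compared. All cells were SW480, which carry a truncated APC tumour suppressor, and all were given an siRNA with the RNAiMAX reagent in serum-containing medium with insulin and hydrocortisone. Control cells carried an empty vector and received control siRNA, named siGFP in the sample titles. The siTAZ cells carried the empty vector and received siRNA against TAZ (gene WWTR1), a transcriptional co-activator that works with TEAD factors. The sibcat cells carried the empty vector and received siRNA against beta-catenin (CTNNB1), the transcriptional effector of canonical Wnt signalling. The APC cells carried a vector for wild-type APC, which promotes beta-catenin degradation, and received control siRNA. Each target was knocked down in 1 siRNA condition, and how many stable APC lines stand behind the 4 APC arrays is not stated. Replicates are called biological, with no word on whether each was its own culture. The p-values here therefore reflect the spread among these 16 arrays, part or all of which may be technical.

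Sterol and lipid synthesis genes are controlled as a set by SREBP factors, encoded by SREBF1 and SREBF2. When membrane sterol is low, the escort protein SCAP carries SREBP from the endoplasmic reticulum to the Golgi, where proteases release its active part. When sterol is plentiful, INSIG proteins hold SCAP back. SREBF2 is known mainly for the cholesterol branch and SREBF1 for the fatty acid branch, and SREBF1 and SCD are also targets of the oxysterol receptor LXR. SREBP binds sterol regulatory elements and works with the factor NF-Y, which binds CCAAT boxes.

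RefSeq promoters (GRCh38.p14) were matched for 24 of the 27 measured genes. The 250 bases before the start are printed for the 4 genes with the widest range of group means, so that their boxes can be seen: INSIG1 at chr7:155297628-155297877, plus strand, STARD4 at chr5:111512536-111512785, minus strand, MSMO1 at chr4:165327419-165327668, plus strand, and SCD at chr10:100346983-100347232, plus strand. Each is written 5′ to 3′ on the gene's strand, and capitals mark CCAAT or its reverse complement ATTGG and, in STARD4 alone, also the TEAD motif CATTCC.
INSIG1: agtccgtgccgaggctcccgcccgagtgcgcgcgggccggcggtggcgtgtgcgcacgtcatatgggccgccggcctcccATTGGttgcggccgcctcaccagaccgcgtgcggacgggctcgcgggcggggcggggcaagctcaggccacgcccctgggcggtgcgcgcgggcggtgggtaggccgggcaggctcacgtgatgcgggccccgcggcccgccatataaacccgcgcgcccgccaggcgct
STARD4: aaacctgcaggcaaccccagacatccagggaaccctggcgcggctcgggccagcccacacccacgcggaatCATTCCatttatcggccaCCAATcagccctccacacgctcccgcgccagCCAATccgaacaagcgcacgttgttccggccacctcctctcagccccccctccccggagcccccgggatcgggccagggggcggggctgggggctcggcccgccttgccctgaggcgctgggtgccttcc
MSMO1: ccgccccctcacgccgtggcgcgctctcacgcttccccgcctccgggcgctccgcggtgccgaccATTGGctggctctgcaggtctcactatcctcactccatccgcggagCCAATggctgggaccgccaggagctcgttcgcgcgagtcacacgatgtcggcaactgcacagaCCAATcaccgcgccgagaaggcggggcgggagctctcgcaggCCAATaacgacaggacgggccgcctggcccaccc
SCD: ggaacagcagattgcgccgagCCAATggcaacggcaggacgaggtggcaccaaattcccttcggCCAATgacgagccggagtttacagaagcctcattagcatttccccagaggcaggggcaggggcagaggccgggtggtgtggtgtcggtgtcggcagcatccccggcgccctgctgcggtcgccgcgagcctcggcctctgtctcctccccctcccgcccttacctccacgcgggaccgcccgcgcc
MSMO1 held 4 CCAAT boxes, STARD4 and SCD held 2 each and INSIG1 held 1. Over the 24 genes, 17 promoters (70.8%) held CCAAT on either strand, beside 33.0% of all 27305 RefSeq promoters of this length. The sterol element core TCACNCCAC was found in 1 of the 24 (4.17%), SREBF2, beside 0.875% of all promoters. CATTCC was found in 4 (16.7%), PMVK, HSD17B7, EBP and STARD4, beside 11.9% of all promoters. The TCF/LEF motif CTTTGA was found in 1 (4.17%), ELOVL6, beside 11.4% of all promoters. These are matches of letters in these windows on both strands, counted without a test.

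The siRNA targets were low in their own groups: WWTR1 averaged 10.28 ± 0.11 (SD, n = 4) in control cells and 6.91 ± 0.15 in siTAZ cells, and CTNNB1 13.12 ± 0.16 in control cells and 10.16 ± 0.24 in sibcat cells. They also differed elsewhere: WWTR1 was at 1.62-fold the control level in sibcat and 1.65-fold in APC cells. CTNNB1 was at 77.1% of the control level in APC cells. None of these groups overlapped control, while CTNNB1 in siTAZ cells did. All 7 colon epithelial markers lay above 5.10, the median level of all probe sets, in every group, with array means of 10.4 to 10.7. Single markers differed more than these means: CDH1 was at 45.7% of the control level in siTAZ cells. In sibcat cells CDX2 was at 51.2% of the control level and VIL1 at 2.03-fold. Of the markers of other cell types, 1 of 4 for fibroblasts, 1 of 3 for endothelium, 0 of 3 for hepatocytes and 0 of 3 for adipocytes lay above 5.10 in every group, and 1 of 3 for leukocytes, or 2 in siTAZ cells. Those above it in control cells were COL1A1 at 6.91, PECAM1 at 5.89 and CD3E at 5.22. The dimmest of each list, LUM, CDH5, PTPRC, ALB and ADIPOQ, averaged 2.99, 3.18, 3.15, 2.81 and 2.48 in control cells. The monocyte marker CD14 averaged 4.60 in control and 6.24 in sibcat cells, while PTPRC averaged 3.13 in sibcat cells. Arrays A and B stood apart from C and D in every group on the first principal component of the within-group deviations, which held 29.9% of that variance, and the labels name no batch for this. The 3′ minus 5′ log2 difference of ACTB, a measure of RNA integrity, averaged 2.05 ± 0.16 in control, 2.57 ± 0.39 in siTAZ, 2.30 ± 0.24 in sibcat and 2.08 ± 0.32 in APC cells. The difference between siTAZ and control cells had an exact two-sided permutation p of 0.0571, where the smallest p that 4 against 4 arrays allow is 0.0286. The part of ACTB in the results below was examined only by adding it as a covariate. The same difference for GAPDH averaged 0.35 ± 0.07 in control, 0.51 ± 0.11 in siTAZ, 0.34 ± 0.06 in sibcat and 0.27 ± 0.04 in APC cells, and its part in the results was not tested. In bulk RNA, fewer cells of a type and less RNA per cell cannot be told apart.

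All 27 genes averaged above 5.10 in every group, from MVD, the mevalonate diphosphate decarboxylase, at 5.21 in control cells, to SCD, the stearoyl-CoA desaturase, at 12.40 in sibcat cells. Of the 4 groups, APC cells had the lowest mean for 16 of the 27 genes, and for 13 of these the mean was also lower than in the next group by limma at an adjusted p below 0.05. The sibcat cells had the highest mean for 13 genes, and for 5 of these it was above that of the next group by the same test. Control cells had the highest mean for 8 genes, and for 6 of these it was above that of the next group. The order of groups was not counted over all genes, so these counts have no background share and only describe the 27 genes. In 3 genes every neighbour in the order of groups differed by this test. INSIG1 ran sibcat, control, siTAZ, APC from high to low, SQLE ran control, sibcat, APC, siTAZ, and SC5D ran sibcat, siTAZ, control, APC. The SC5D difference of siTAZ minus sibcat was only -0.12 (adjusted p = 0.0403, limma). That call was lost in 10 of 28 alternatives, among them arrays A and B alone and C and D alone. On the brightest probe sets no neighbours in the order differed for MVK, MVD, LSS, NSDHL, FADS2 and SREBF2. For SREBF2 the mean of its probe sets gave other results, which are stated below.

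**Figure D1:**
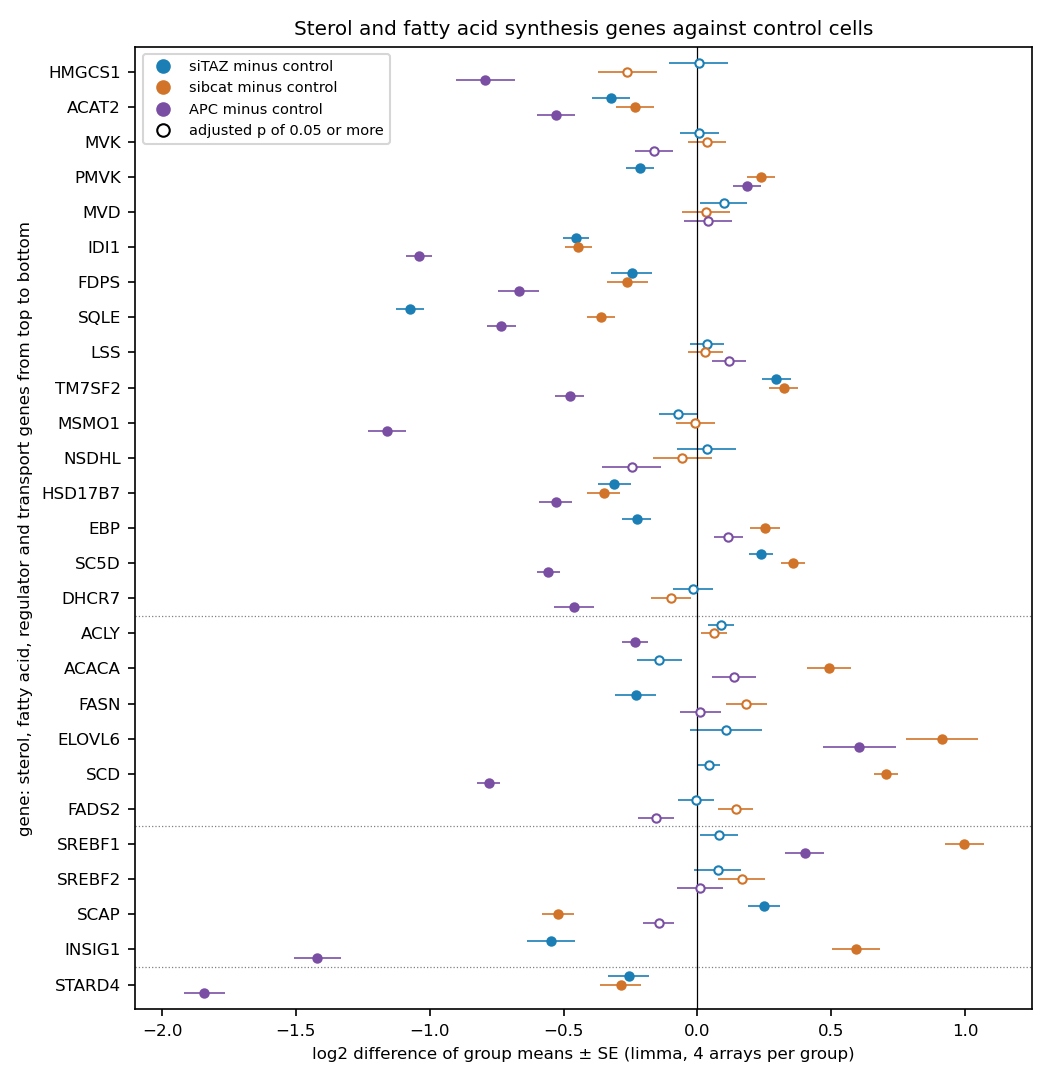
Log2 difference of each gene from control cells, ± SE from limma, with 4 arrays per group. Filled points passed an adjusted p below 0.05 and open points did not. Of the APC points, those of STARD4, INSIG1, MSMO1 and IDI1 lie farthest to the left, at -1.84, -1.42, -1.16 and -1.04, and the sibcat points of SREBF1 and ELOVL6 farthest to the right, at 1.00 and 0.91.

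In cells given wild-type APC, most of the sterol synthesis genes were lower than in control cells, and so were the regulator INSIG1, the sterol carrier STARD4 and the desaturase SCD. By limma, with Benjamini-Hochberg adjustment over all 19775 genes and calls at an adjusted p below 0.05, 14 of the 27 genes fell and 3 rose. Over all genes 17.1% fell and 16.6% rose. In the sterol branch 10 of 16 genes fell and 1 rose, and the median log2 difference of that branch was -0.50, beside 0.010 over all genes. In the fatty acid branch 2 of 6 genes fell and 1 rose, and the median was -0.073.

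STARD4, which carries cholesterol between membranes, measured 10.95, 10.81, 11.04 and 11.13 on control arrays A to D and 9.15, 8.98, 9.28 and 9.15 on the APC arrays. The highest APC array lay far below the lowest control array, and no siTAZ or sibcat array came near the APC values. The level in APC cells was 27.9% of that in control cells (log2 difference -1.84, SE 0.075, adjusted p = 5e-12, limma). STARD4 has a single probe set in this annotation, so no second probe set was compared.

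INSIG1, the protein that retains SCAP in the endoplasmic reticulum, measured 10.19, 9.99, 10.39 and 10.38 on the control arrays and 8.72, 8.72, 9.01 and 8.82 on the APC arrays. These groups did not overlap, and the APC cells held 37.4% of the control level (log2 difference -1.42, SE 0.088, adjusted p = 1.22e-09, limma). The other 2 INSIG1 probe sets also fell by 1.24 and 1.10 on the log2 scale.

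MSMO1, the sterol C4-methyl oxidase, measured 11.11, 11.04, 11.20 and 11.21 on the control arrays and 9.83, 9.96, 10.17 and 9.96 on the APC arrays, without overlap (log2 difference -1.16, SE 0.072, adjusted p = 1.25e-09, limma). The siTAZ and sibcat arrays overlapped the control arrays for this gene, and their log2 differences from control were -0.073 and -0.0075, not past the test. For STARD4, INSIG1 and MSMO1 the exact two-sided permutation p of APC against control was 0.0286, the smallest that 4 against 4 arrays can give.

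IDI1, the isopentenyl diphosphate isomerase, measured 10.00, 10.08, 9.91 and 9.88 on the control arrays and 8.94, 8.94, 8.91 and 8.92 on the APC arrays. The APC arrays lay between 8.91 and 8.94 and below every array of the other groups (log2 difference -1.04, SE 0.049, adjusted p = 3.21e-11, limma). The used IDI1 probe set is of a kind that can match other transcripts. The second such probe set fell by 0.88 and the gene-specific one, at a mean level of 5.27, by 0.20, while the last differed by -0.10 and did not pass.

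HMGCS1, which makes HMG-CoA, measured 7.96, 7.85, 8.15 and 8.15 on the control arrays and 7.03, 7.07, 7.49 and 7.35 on the APC arrays, without overlap (log2 difference -0.79, SE 0.11, adjusted p = 1.93e-05, limma). FDPS, the farnesyl diphosphate synthase, measured 10.88, 10.77, 11.01 and 10.96 on the control arrays and 10.21, 10.09, 10.40 and 10.25 on the APC arrays (log2 difference -0.67, SE 0.077, adjusted p = 2.39e-06, limma). SQLE, the squalene epoxidase, measured 9.52, 9.60, 9.56 and 9.70 on the control arrays and 8.80, 8.87, 8.88 and 8.90 on the APC arrays (log2 difference -0.73, SE 0.053, adjusted p = 8.81e-09, limma). In all 3 genes every APC array was below every control array.

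The other sterol genes that fell in APC cells were SC5D, the sterol C5-desaturase, by 0.56, ACAT2, the cytosolic acetoacetyl-CoA thiolase, by 0.53, and HSD17B7, the 3-ketosteroid reductase of the pathway, by 0.53. The other SC5D probe set averaged 2.86, well under the 5.10 median, and did not pass in any comparison with control. HSD17B7 was measured by a single probe set, of the kind that can match other transcripts. TM7SF2, the sterol C14-reductase, fell by 0.48 and DHCR7, the reductase that yields cholesterol, by 0.46. PMVK, the phosphomevalonate kinase, rose by 0.19, and its call was lost on arrays A and B alone (adjusted p = 0.129) and on C and D alone (adjusted p = 0.0909). MVK, MVD, LSS, NSDHL and EBP did not pass, with log2 differences of -0.16, 0.040, 0.12, -0.25 and 0.12. These 5 genes encode mevalonate kinase, mevalonate diphosphate decarboxylase, lanosterol synthase, the sterol dehydrogenase NSDHL and the emopamil-binding sterol isomerase.

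The fatty acid branch was split in APC cells. SCD, which makes monounsaturated fatty acids, measured 11.68, 11.73, 11.68 and 11.71 on the control arrays and 10.93, 10.98, 10.92 and 10.85 on the APC arrays (log2 difference -0.78, SE 0.044, adjusted p = 2.86e-10, limma). ELOVL6, which lengthens saturated and monounsaturated fatty acids, measured 7.77, 7.55, 8.03 and 8.09 on the control arrays and 8.17, 8.30, 8.71 and 8.68 on the APC arrays (log2 difference 0.61, SE 0.14, adjusted p = 0.00191, limma). The SCD groups were far apart, and the ELOVL6 groups came close, with the highest control array at 8.09 and the lowest APC array at 8.17. ELOVL6 was lower on arrays A and B than on C and D in every group, and within those pairs its difference in APC cells was 0.58 and 0.64. ACLY, the ATP-citrate lyase that supplies acetyl-CoA, fell by 0.24, with the call lost on arrays A and B alone (adjusted p = 0.0713). ACACA, FASN and FADS2, the acetyl-CoA carboxylase, fatty acid synthase and a desaturase of polyunsaturated fatty acids, did not pass (0.14, 0.010 and -0.16). The other ACACA probe set, at a mean level of 7.02, rose by 0.28, and the mean of both rose by 0.21.

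Of the regulators, SREBF1 rose in APC cells while INSIG1 fell. SREBF1 measured 8.03, 7.92, 7.78 and 7.86 on the control arrays and 8.46, 8.32, 8.27 and 8.14 on the APC arrays, which did not overlap (log2 difference 0.40, SE 0.072, adjusted p = 2.78e-04, limma). Its other probe set, at a mean level of 5.88, differed by -0.065 and did not pass. SREBF2 and SCAP did not pass on their brightest probe sets (0.010 and -0.15), while the other 2 SREBF2 probe sets fell by 0.37 and 0.32. On the mean of its probe sets the SREBF2 difference was -0.23 and passed (adjusted p = 1.96e-04, limma). With the replicate letter as a block NSDHL (-0.25, adjusted p = 0.00302), SCAP (-0.15, adjusted p = 0.0182) and FADS2 (-0.16, adjusted p = 0.0479) passed as well. Leaving out 1 array also added calls: SCAP without control C or APC B (-0.19 to -0.17, adjusted p = 0.0273 to 0.0494), NSDHL without control B or APC C (-0.32 to -0.31, adjusted p = 0.0388 to 0.0475), FADS2 without control C (-0.20, adjusted p = 0.0381) and MVK without APC B (-0.21, adjusted p = 0.0367).

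**Figure D2:**
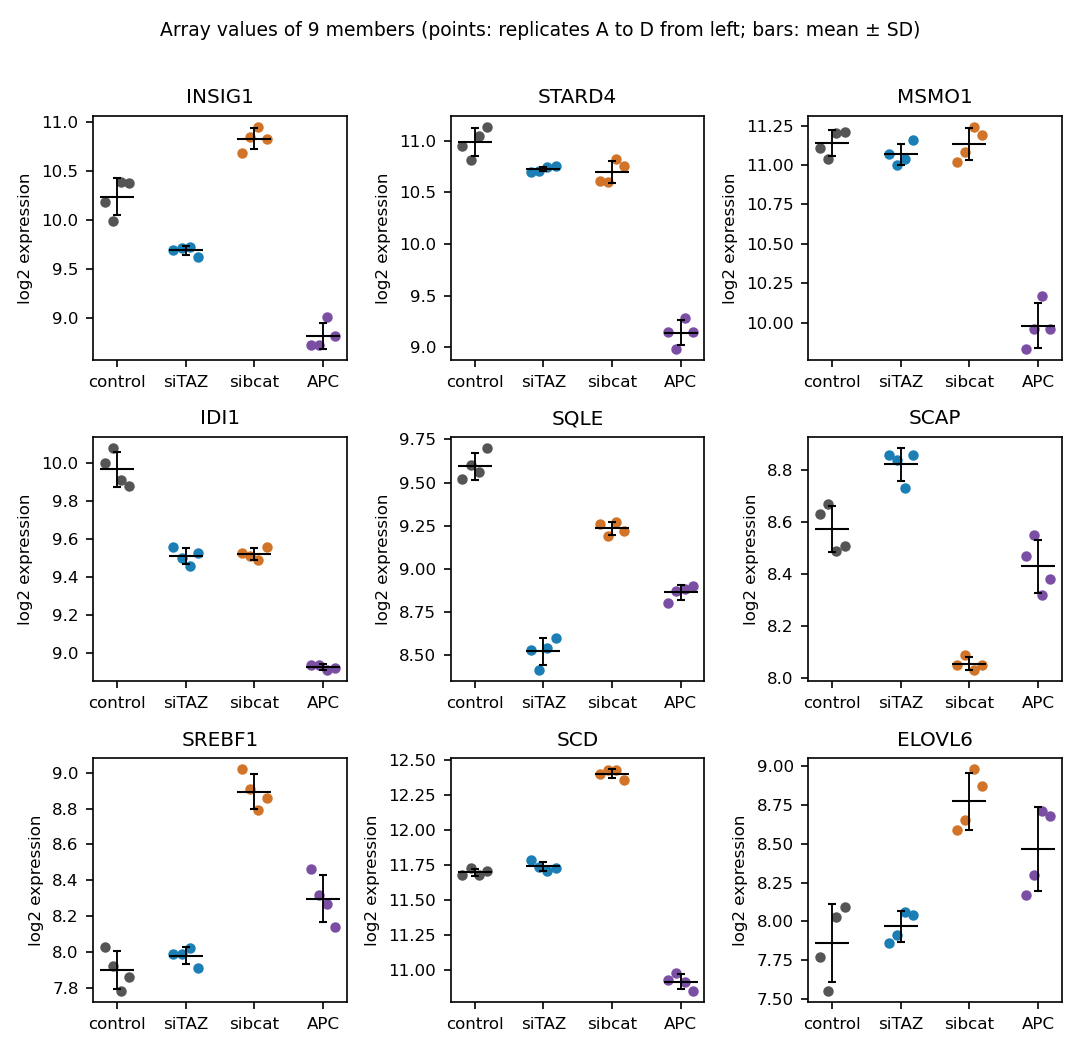
Log2 level of 9 genes on each of the 16 arrays, with replicates A to D from left to right in each group and bars at the group mean ± SD (n = 4). STARD4 and MSMO1 show 1 low group, the APC cells, whereas SQLE is lowest in siTAZ cells, with all 4 arrays from 8.41 to 8.60.

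After knockdown of beta-catenin, SREBF1, INSIG1 and the fatty acid genes ELOVL6, SCD and ACACA were higher than in control cells, SCAP was lower, and sterol genes moved in both directions. By limma, 9 of the 27 genes rose and 7 fell, beside 18.6% and 17.3% over all genes. With each array centred on its median, 9 rose and 8 fell, and the share of higher calls over all genes went from 51.9% to 41.5%. In the fatty acid branch 3 of 6 genes rose and 0 fell at this threshold, with a median of 0.34, while in the sterol branch 4 of 16 rose and 5 fell, with a median of -0.033. The comparisons of APC, sibcat and siTAZ cells with control share the same 4 control arrays.

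SREBF1 measured 9.02, 8.91, 8.79 and 8.86 on the sibcat arrays, all above the highest control array at 8.03. The level was 2.00-fold that of control cells (log2 difference 1.00, SE 0.072, adjusted p = 8.31e-09, limma). The dimmer SREBF1 probe set again did not pass, at -0.14. ELOVL6 measured 8.59, 8.65, 8.98 and 8.87 on the sibcat arrays, above all control arrays (log2 difference 0.91, SE 0.14, adjusted p = 3.67e-05, limma), and within the A and B arrays the difference was 0.96 and within C and D 0.87. Both other ELOVL6 probe sets rose too, by 0.67 and 0.95.

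SCD measured 12.40, 12.43, 12.43 and 12.36 on the sibcat arrays, higher than in any other group (log2 difference 0.71, SE 0.044, adjusted p = 1.27e-09, limma). All 4 SCD probe sets rose in sibcat cells, by 0.42 to 0.71, and all 4 fell in APC cells. ACACA, the rate-limiting enzyme of fatty acid synthesis, measured 9.26, 9.27, 9.17 and 9.01 on the sibcat arrays and 8.71, 8.86, 8.62 and 8.55 on the control arrays, without overlap (log2 difference 0.49, SE 0.083, adjusted p = 1.41e-04, limma), and its other probe set rose by 0.21. FASN, ACLY and FADS2 differed by 0.18, 0.063 and 0.14 and did not pass.

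INSIG1 measured 10.69, 10.85, 10.95 and 10.83 on the sibcat arrays, above the highest control array at 10.39 (log2 difference 0.59, SE 0.088, adjusted p = 4e-05, limma), and its other 2 probe sets rose as well. SCAP measured 8.05, 8.09, 8.03 and 8.05 on the sibcat arrays against 8.63, 8.67, 8.49 and 8.51 on the control arrays (log2 difference -0.52, SE 0.059, adjusted p = 1.98e-06, limma). SREBF2 differed by 0.17, which did not pass.

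In the sterol branch, IDI1 had the largest difference from control in sibcat cells, at 9.53, 9.51, 9.49 and 9.56 on the sibcat arrays (log2 difference -0.45, SE 0.049, adjusted p = 1.43e-06, limma). The groups did not overlap, but on the dimmer gene-specific probe set the difference was -0.15 and did not pass. SQLE measured 9.26, 9.19, 9.27 and 9.22 on the sibcat arrays, below all control arrays (log2 difference -0.36, SE 0.053, adjusted p = 3.61e-05, limma). HSD17B7, FDPS and ACAT2 fell by 0.35, 0.26 and 0.23, and the ACAT2 call was lost without control C, sibcat A or sibcat B (adjusted p = 0.0514 to 0.0636), and on arrays C and D alone (adjusted p = 0.163). STARD4 fell by 0.29, with 1 sibcat array, at 10.82, above the lowest control array, and the call was lost on arrays A and B alone (adjusted p = 0.0615). SC5D, TM7SF2, EBP and PMVK rose by 0.36, 0.32, 0.25 and 0.24, and the last pair were lost on arrays A and B alone (adjusted p = 0.0511 and 0.0717).

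HMGCS1 measured 7.61, 7.62, 7.93 and 7.90 on the sibcat arrays and missed the threshold (log2 difference -0.26, SE 0.11, adjusted p = 0.0755, limma). It passed with the replicate letter as a block (adjusted p = 0.00389), as did FASN (0.18, adjusted p = 0.0148). HMGCS1 passed on arrays A and B alone, at -0.29, and on C and D alone, at -0.24. It also passed without control B or sibcat C (adjusted p = 0.0383 to 0.0466), as did FADS2 (0.19, adjusted p = 0.0321 to 0.0327), and FASN passed without siTAZ A, siTAZ C or sibcat C (0.18 to 0.22, adjusted p = 0.0329 to 0.0499). The remaining sterol genes MVK, MVD, LSS, MSMO1, NSDHL and DHCR7 lay between -0.10 and 0.035 and did not pass.

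After knockdown of TAZ, SQLE had the largest difference from control of the 27 genes and was lower, and IDI1, INSIG1 and several other genes of the sterol side fell by smaller amounts, while the main fatty acid genes did not pass except FASN. By limma, 10 of the 27 genes fell and 3 rose, beside 13.1% and 17.0% over all genes. Centring each array left the members' split at 3 higher and 10 lower, while the share of higher calls over all genes went from 56.4% to 39.0%. In the sterol branch 7 of 16 genes fell and 2 rose, with a median of -0.044, and in the fatty acid branch 1 of 6 fell and 0 rose, with a median of 0.019. On arrays A and B alone 6 of the 27 genes passed, in place of 13, and over all genes 3566 in place of 5951.

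SQLE measured 8.53, 8.41, 8.54 and 8.60 on the siTAZ arrays, lower than on any array of the other 3 groups. The siTAZ cells held 47.5% of the control level (log2 difference -1.08, SE 0.053, adjusted p = 2.05e-10, limma). All 4 SQLE probe sets fell in siTAZ cells, by 0.54 to 1.30 on the log2 scale. IDI1 measured 9.56, 9.50, 9.46 and 9.53 on the siTAZ arrays, below all control arrays and within the sibcat range but for 1 array at 9.46 (log2 difference -0.46, SE 0.049, adjusted p = 1.85e-06, limma). As stated for APC cells, the IDI1 probe set used can match other transcripts. The call held in all 28 alternatives, but the difference was as small as -0.178 and the adjusted p as large as 0.0470 (limma). INSIG1 measured 9.69, 9.72, 9.73 and 9.62 on the siTAZ arrays, below the lowest control array at 9.99 (log2 difference -0.55, SE 0.088, adjusted p = 1.25e-04, limma).

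ACAT2, HSD17B7 and FDPS fell by 0.32, 0.31 and 0.25 in siTAZ cells. EBP and PMVK, which rose in sibcat cells, fell here by 0.23 and 0.22, and the other 3 EBP probe sets did not pass. STARD4 measured 10.70, 10.71, 10.74 and 10.75 on the siTAZ arrays and fell by 0.26, with every siTAZ array below the lowest control array. TM7SF2, SC5D and SCAP rose by 0.30, 0.24 and 0.25. FASN measured 7.73, 7.60, 7.56 and 7.62 on the control arrays and 7.59, 7.38, 7.17 and 7.45 on the siTAZ arrays (log2 difference -0.23, SE 0.076, adjusted p = 0.0304, limma), with 1 siTAZ array inside the control range. The other FASN probe set, at a mean level of 5.86, differed by 0.085 and did not pass.

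Several of these smaller calls were lost when 1 array was left out or under other alternatives. The FASN call was lost without control A, control D, siTAZ B or siTAZ C (adjusted p = 0.0555 to 0.113), and on either pair of letters alone. The FDPS call was lost without control C, control D, siTAZ A or siTAZ B (adjusted p = 0.0595 to 0.0731), and the STARD4 call without control D (adjusted p = 0.0581). With the ACTB 3′ minus 5′ difference as a covariate the calls of FDPS, EBP, SCAP and STARD4 were lost, and those of SQLE, IDI1, INSIG1 and ACAT2 were kept. With it ELOVL6 and ACACA passed, at 0.39 and -0.30. On arrays A and B alone the calls of PMVK, FDPS, TM7SF2, SC5D, FASN, SCAP and STARD4 were lost, and on C and D alone those of PMVK, HSD17B7, EBP and FASN. For SQLE, INSIG1 and IDI1 the difference was -1.09, -0.39 and -0.51 on arrays A and B and -1.06, -0.71 and -0.40 on C and D.

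The genes that did not pass in siTAZ cells included SCD at 0.043, MSMO1 at -0.073, HMGCS1 at 0.0050, ELOVL6 at 0.11, SREBF1 at 0.080 and SREBF2 at 0.075. For SCD the probe sets differed: 2 of 4 fell by 0.36 and 0.54, and the mean of all 4 fell by 0.23. For HMGCS1 the dimmer probe set, at a mean level of 5.97, fell by 0.64 in siTAZ, 0.61 in sibcat and 0.93 in APC cells. For ELOVL6 1 of 3 probe sets rose in siTAZ cells, by 0.34 at a mean level of 5.25. On the mean of its probe sets SREBF2 passed in siTAZ cells, at 0.11 (adjusted p = 0.0486, limma).

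**Figure D3:**
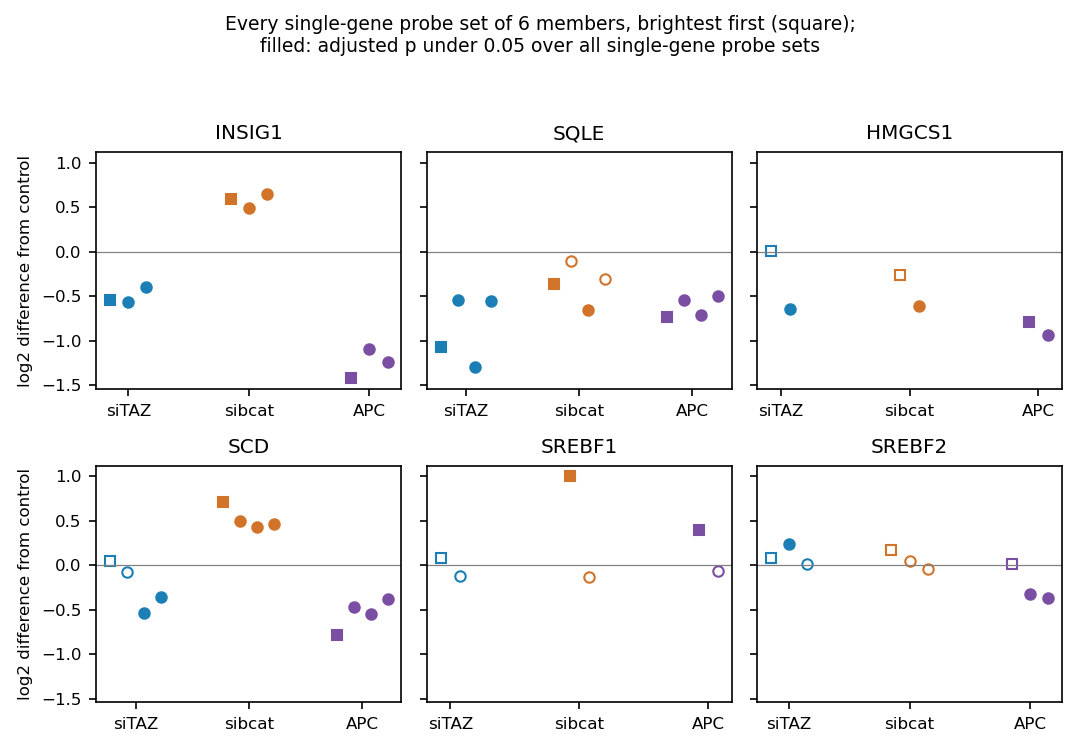
Log2 difference from control for every single-gene probe set of 6 genes, with the brightest as a square and the others as circles, filled at an adjusted p below 0.05 over all single-gene probe sets. The 3 INSIG1 probe sets lie on the same side in each comparison, while those of HMGCS1 and SCD are spread in siTAZ cells.

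Set directly against sibcat cells, without shared control arrays, APC cells were lower in both branches. By limma 18 of the 27 genes were lower in APC than in sibcat cells and 1 higher, beside 21.7% and 20.3% over all genes. The lower genes were 11 of 16 in the sterol branch, 4 of 6 in the fatty acid branch, 2 of 4 regulators and STARD4. INSIG1 was 4.03-fold lower in APC cells (log2 difference -2.01, SE 0.088, adjusted p = 1.05e-11, limma), and its highest APC array, at 9.01, lay below the lowest sibcat array, at 10.69. STARD4 (-1.56), SCD (-1.49) and MSMO1 (-1.15) followed, and SC5D, TM7SF2 and SREBF1 were lower by 0.92, 0.80 and 0.60. For SREBF1 the smallest difference in size among the alternatives run was -0.264. SCAP was the single gene higher in APC cells, by 0.38. SREBF2 did not pass on its brightest probe set, but on the mean of its probe sets the difference was -0.28 (adjusted p = 1.33e-05, limma). IDI1 was lower by 0.60, but on its gene-specific probe set the difference was -0.043 and did not pass, and FADS2 was lower by 0.30, where its dimmer probe set, at a mean level of 4.56, differed by 0.020. With the replicate letter as a block ELOVL6 (-0.31, adjusted p = 0.00243), NSDHL (-0.19, adjusted p = 0.0129), FASN (-0.17, adjusted p = 0.0174) and EBP (-0.14, adjusted p = 0.0201) passed too. The MVK call was lost without sibcat A, sibcat B, APC C or APC D (adjusted p = 0.0874 to 0.129), and the HSD17B7 call without sibcat B, sibcat C, APC A or APC C (adjusted p = 0.0539 to 0.0800). Calls were added for EBP without siTAZ A, siTAZ D, sibcat B or APC D (adjusted p = 0.0352 to 0.0455), for ELOVL6 without APC C or APC D (adjusted p = 0.0358 to 0.0455) and for FASN without siTAZ C (adjusted p = 0.0373).

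The siTAZ cells were lower than sibcat cells in INSIG1, SREBF1, SQLE and most of the fatty acid branch, and higher in SCAP. By limma 10 of the 27 genes were lower in siTAZ than in sibcat cells and 1 higher, beside 17.8% and 18.9% over all genes. In the fatty acid branch 4 of 6 were lower, ELOVL6 by 0.81, SCD by 0.66, ACACA by 0.64 and FASN by 0.41. The other probe sets of ACACA and FASN differed by -0.063 and 0.15 and did not pass, and on the mean of its probe sets FASN differed by -0.13 (adjusted p = 0.120). INSIG1 was lower by 1.14 and SREBF1 by 0.92, and SCAP was higher by 0.77. For SREBF1 the smallest difference in size among the alternatives run was -0.454, and its dimmer probe set is described above against control only. In the sterol branch 4 of 16 were lower, with SQLE at -0.72, EBP at -0.48, PMVK at -0.45 and SC5D at -0.12. The SC5D call was lost without siTAZ B, siTAZ D, sibcat B, sibcat C or sibcat D (adjusted p = 0.0657 to 0.131). HMGCS1 gained one with the replicate letter as a block (0.27, adjusted p = 0.00328) and without sibcat C or APC C (adjusted p = 0.0421 to 0.0463), and FADS2 without sibcat C (adjusted p = 0.0277).

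Set against APC cells, siTAZ cells were higher in 9 of 16 sterol genes, in STARD4, INSIG1 and SCD, and lower in SQLE. By limma 14 of the 27 genes were higher in siTAZ than in APC cells and 7 lower, beside 22.4% and 19.9% over all genes. With centred arrays the calls of ACAT2 and HSD17B7 were lost and that of LSS was added. The GAPDH 3′ minus 5′ difference did not overlap between these groups (exact two-sided permutation p = 0.0286). Centring the arrays gave 12 higher and 8 lower, and the share of higher calls over all genes went from 53.0% to 39.5%. STARD4 was higher in siTAZ cells by 1.59, MSMO1 by 1.09, INSIG1 by 0.87, SCD by 0.82, and HMGCS1 and SC5D by 0.80 each. ELOVL6, PMVK, SQLE, EBP, SREBF1, ACACA and FASN were lower by 0.50, 0.40, 0.34, 0.34, 0.32, 0.28 and 0.24. For SREBF1 the smallest difference in size among the alternatives run was -0.19. With the ACTB covariate the ELOVL6 difference was -0.23 and did not pass (adjusted p = 0.138). On the gene-specific IDI1 probe set the difference was 0.018, where the brightest gave 0.59. SREBF2 did not pass on its brightest probe set, but on the mean of its probe sets the difference was 0.34 (adjusted p = 1.66e-06, limma). The ACAT2 call was lost without siTAZ B, siTAZ C, APC A or APC B (adjusted p = 0.0681 to 0.0859), and the FASN call without siTAZ C (adjusted p = 0.0673), on arrays A and B alone (adjusted p = 0.175) and on C and D alone (adjusted p = 0.0551). The other probe sets of FASN and ACACA (0.028 and -0.13) and the gene-specific one of EBP (-0.16) did not pass. NSDHL gained one without control B, control C, siTAZ A, sibcat A or APC C (adjusted p = 0.0227 to 0.0453), and MVK without siTAZ B, APC A or APC B (adjusted p = 0.0238 to 0.0468).

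The branches were also compared as means over genes on each array, as a description with no test. The mean difference of the 16 sterol genes from their control means was -0.16, -0.16, -0.13 and -0.10 on siTAZ arrays A to D, -0.094, -0.076, -0.017 and -0.016 on the sibcat arrays and -0.45, -0.47, -0.38 and -0.42 on the APC arrays. For the 6 fatty acid genes it was 0.042, -0.037, -0.065 and -0.033 on the siTAZ arrays, 0.42, 0.43, 0.42 and 0.40 on the sibcat arrays and -0.082, -0.080, -0.057 and -0.060 on the APC arrays. The sterol mean was lowest on the APC arrays and the fatty acid mean highest on the sibcat arrays, and in both cases these 4 arrays did not overlap those of another group. The sterol mean minus the fatty acid mean averaged -0.12 ± 0.06 (SD, n = 4) in siTAZ, -0.47 ± 0.05 in sibcat and -0.36 ± 0.03 in APC cells. It was below 0 on all 12 of these arrays. In sibcat cells the gap came with a higher fatty acid mean, and in APC cells with a lower sterol mean.

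**Figure D4:**
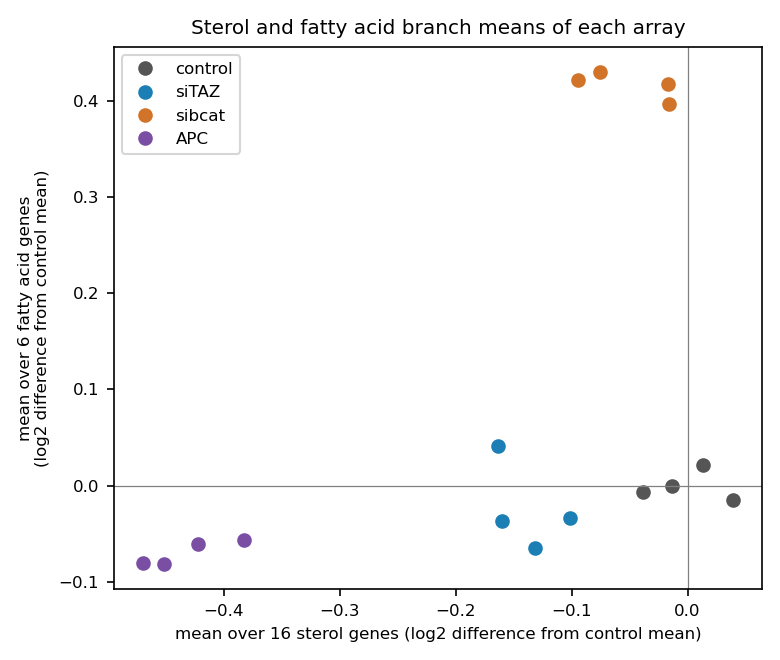
Mean log2 difference from the control means over the 16 sterol genes (horizontal axis) and the 6 fatty acid genes (vertical axis), with 1 point per array. The 4 sibcat arrays lie at the top, with a fatty acid mean of 0.42, and the 4 APC arrays at the left, with a sterol mean of -0.43.

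Of 48 further genes of the pathway, 37 were measured. Against control, 15 rose and 4 fell in siTAZ cells, beside 17.0% and 13.1% over all genes. In sibcat cells 15 rose and 7 fell, beside 18.6% and 17.3%, and in APC cells 8 rose and 9 fell, beside 16.6% and 17.1%. The 4 measured genes listed for sterol efflux and LXR, ABCG1, ABCA1, NR1H3 and MYLIP, all rose in sibcat and APC cells. Of them 3 rose in siTAZ cells. ABCG1, a sterol exporter, averaged 5.32 in control, 6.87 in siTAZ, 7.87 in sibcat and 7.17 in APC cells. ABCA1, the exporter that loads apolipoprotein A-I, averaged 4.30 in control cells, under the 5.10 median of probe sets, and 5.15, 7.25 and 7.60 in siTAZ, sibcat and APC cells. NR1H3, which encodes LXR-alpha, rose by 1.57 in sibcat and 0.43 in APC cells and differed by 0.14 in siTAZ cells, which did not pass. MYLIP, a ubiquitin ligase that is an LXR target, rose by 1.10, 0.49 and 0.52 in siTAZ, sibcat and APC cells.

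Outside the genes listed for sterol efflux and LXR, the largest call against control was that of NFYB in siTAZ cells. It was that of ACSL4 in sibcat and APC cells, with INSIG2 next in APC cells. These genes were named by their rank within a comparison, and genes not named here, such as LIPA in sibcat and NPC1 in APC cells, differed more than NFYB. INSIG2, the second SCAP-retaining protein, rose by 0.25 in siTAZ cells and fell by 0.92 in sibcat and 1.18 in APC cells. INSIG1 and INSIG2 thus moved in opposite directions in siTAZ and sibcat cells and fell together in APC cells. ACSL4, an acyl-CoA synthetase for arachidonate, differed by 0.090 in siTAZ cells, which did not pass, and fell by 1.04 and 1.26 in sibcat and APC cells. NFYB, a subunit of the CCAAT-binding factor NF-Y, fell by 0.68 in siTAZ and 0.40 in sibcat cells and differed by 0.0075 in APC cells, which did not pass.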

How the data were processed

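RNA was measured on 16 Affymetrix U133 Plus 2.0 arrays, and the authors deposited 1 table of log2 expression values per probe set, made with RMA per the submitters' processing notes, which give no version. RMA corrects background and quantile-normalises arrays, which hides any change in the total RNA of a cell. Arrays give no counts, and precision is limited by their number. Of 54675 probe sets, 41097 were annotated to 1 gene, 1801 to several and 11777 to none. Symbols were looked up by gene ID for 41043, and 0 changed. Array medians ran from 5.06 to 5.12.

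The groups were fitted together in limma 3.58.1 under R 4.3.3 (lmFit, eBayes), with no block and no filter on dim probe sets. Adjusted p-values are Benjamini-Hochberg values over 19775 genes within each of 6 comparisons. Calls of further probe sets of a gene come from the same model over all 41097 single-gene probe sets. Full array values are given for genes called at 1.5-fold or more against control or largest in their branch in a comparison, pathway genes outside the list by the 4 largest calls against control. The labels do not say whether letters A to D pair the arrays. The correlation of same-lettered deviations from the group means only set where blocked values are given. It cannot show pairing, because the split of A and B from C and D raises it too. Of 72 pairs of arrays with different letters, 19 were also over 0.1. All 4 same-lettered correlations were over 0.1 for sibcat and APC against control, siTAZ against sibcat and APC against sibcat. Blocked values are given there beside the results they change. For siTAZ against control (lowest 0.092) and against APC (lowest 0.084) they appear only in the closing section. The members and lists were chosen with earlier results of these data known. Alternatives covered the choice of probe set, centring, requantiling, dim genes, the prior, an ACTB covariate, the samples in the fit, blocks and each array left out. Promoters came from RefSeq. Genome positions were used only to place the printed promoters.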

Additional observations from a re-analysis of the deposited data

Results flagged for a closer look

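In 108 groups of 4 arrays, 1 for each of the 27 genes and 4 groups, 3 held an array far from the others by Dixon's criterion, which chance meets in about 5% of groups. TM7SF2 measured 8.31 on siTAZ B, where the nearest siTAZ array was at 8.45. ACLY measured 11.63 on siTAZ A, where the nearest was at 11.49. SCAP measured 8.73 on siTAZ C, where the nearest was at 8.84.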

How the results depend on the processing

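The counts of genes called in the 6 comparisons (siTAZ, sibcat and APC against control, then siTAZ against sibcat, APC against sibcat and siTAZ against APC) were 13, 16, 17, 11, 19 and 21. Leaving out 1 array at a time gave 10 to 13, 15 to 19, 17 to 19, 10 to 12, 18 to 20 and 19 to 22. On arrays A and B alone the first count was 6, and over all genes 3566 passed in place of 5951. With only probe sets whose names carry no cross-matching suffix, which 18 genes have, the counts were 6, 9, 9, 7, 11 and 10, where the brightest probe sets of those 18 genes gave 8, 11, 10, 8, 13 and 13. That choice turned SC5D, whose remaining probe set averages 2.86, to -0.0525, -0.0325 and 0.035 against control, 0.0675 for APC against sibcat and -0.0875 for siTAZ against APC, and FADS2 to 0.02 for APC against sibcat. No other direction of a called gene turned under the alternatives run. With the letter as a replicate block the counts were 13, 18, 20, 12, 23 and 24, and no call of the 27 genes was lost. Over all genes the calls numbered 5951, 7099, 6670, 7259, 8308 and 8377 without that block. With it they numbered 6808, 7898, 7617, 7995, 8994 and 9077, so the rise was not particular to these genes. Beside the calls named in the text, the block added NSDHL (adjusted p = 8.22e-04), MVK (adjusted p = 0.0458) and FADS2 (adjusted p = 0.0473) for siTAZ against APC, and it changed no other call. Over all groups 9 of 16 arrays correlated best with their own letter. Small differences are limited by 4 arrays a group and by dim probe sets such as those of MVD.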
